A study of Mus musculus with 9 samples.

Results

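The 8 genes described here encode enzymes that desaturate fatty acids (Scd1, Scd2, Fads1, Fads2) or lengthen them (Elovl1, Elovl2, Elovl5, Elovl6). They were chosen by symbol among 55401 genes counted in mouse liver, and all 8 passed the filter on low counts. RNA of the left liver lobe was read from transcript 3' ends (QuantSeq) in 9 libraries, 3 in each of 3 groups, and a library held 7409090 to 9911855 counts. Chow mice ate a chow diet and received neither streptozotocin nor Atglistatin. STAM mice, in which fatty liver develops on a diabetic background, were males injected under the skin with 200 µg of streptozotocin, a toxin of insulin-producing cells, at 2 days of age. From the age of 4 weeks they were fed high-fat diet, and that feeding lasted 4 weeks. The STAM + Atglistatin group had the same injection and feeding, and its diet also held Atglistatin, which inhibits the triglyceride lipase ATGL. The sources used here give neither the strain nor the sex of the chow mice. Streptozotocin and diet changed together between chow and STAM, so their parts cannot be told apart.

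Long-chain fatty acids made in the liver start as palmitate. Elovl6 encodes the elongase that turns palmitate into stearate, and stearoyl-CoA desaturase, encoded mainly by Scd1 in liver, puts the first double bond into both, giving palmitoleate and oleate for triglyceride storage. Polyunsaturated fatty acids take another route: linoleate and alpha-linolenate from food are desaturated by the FADS2 and FADS1 enzymes and lengthened by ELOVL5 and ELOVL2 on the way to arachidonic and docosahexaenoic acid. In liver many of these genes are known to respond to the transcription factor SREBP-1c, which insulin induces and polyunsaturated fatty acids restrain.

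Groups were read from the sample titles, since the treatment field of the samples titled chow or STAM goes against the titles and the design text alike. Libraries keep the numbers of those titles: chow 7 to 9, STAM 1 to 3 and STAM + Atglistatin 4 to 6. Each is taken as 1 mouse, which no label states outright; otherwise the p-values measure only technical spread. All 10 hepatocyte markers checked were detected in every library, and 4 of them were called lower in STAM and 6 in STAM + Atglistatin than in chow. CPM is the count of a gene per 1e6 counts of the scaled library. Summed, these markers reached 98434 to 112622 CPM in the chow libraries, only 56324 to 65691 in the STAM libraries, and 78608 to 80792 with Atglistatin. Alb gave much of these sums, with means of 60367 CPM in chow, 29475 in STAM and 45727 with Atglistatin. Apob had a higher mean in STAM (803 CPM) than in chow (710 CPM), and 0 of the 10 were called higher than in chow. The part of these marker differences in the results on desaturases and elongases was not tested. One chow library, replicate 7, differed from its group: all 7 proliferation markers were at their highest of the 9 libraries there, with a summed level of 86.6 CPM against 9.40 and 14.5 in chow and 14.6 to 43.5 in the other groups. Of 7 stellate cell markers 5 were also highest in it (743.8 CPM summed, against 452 and 477 in chow and 403 to 545 in the other groups). Results that rest on it are given with and without it. In bulk tissue, fewer cells of a type and less RNA per cell cannot be told apart.

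Of the 8 genes, 5 had a promoter window in the RefSeq table of GRCm38.p6, and Scd1, Scd2 and Fads1 had none. A window covers 250 bases before to 50 after a transcription start. The windows of Elovl6, Elovl5 and Fads2 are shown, 5' to 3' on the gene's strand. Of the members with a window, these passed the test or came nearest to it in STAM + Atglistatin against STAM. No test compared the 3 genes with one another. Capitals mark the letters of any motif found.
Elovl6: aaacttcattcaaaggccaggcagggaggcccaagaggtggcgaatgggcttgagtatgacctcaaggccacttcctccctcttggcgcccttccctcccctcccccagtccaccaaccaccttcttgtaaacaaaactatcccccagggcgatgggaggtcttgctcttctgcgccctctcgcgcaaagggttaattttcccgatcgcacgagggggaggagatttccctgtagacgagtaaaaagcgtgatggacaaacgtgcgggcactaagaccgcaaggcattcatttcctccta
Elovl5: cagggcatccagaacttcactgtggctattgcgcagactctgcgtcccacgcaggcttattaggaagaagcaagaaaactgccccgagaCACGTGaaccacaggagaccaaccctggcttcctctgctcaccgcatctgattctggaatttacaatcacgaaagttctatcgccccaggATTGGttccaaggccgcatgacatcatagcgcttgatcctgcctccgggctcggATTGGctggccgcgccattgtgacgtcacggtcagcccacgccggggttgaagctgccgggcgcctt
Fads2: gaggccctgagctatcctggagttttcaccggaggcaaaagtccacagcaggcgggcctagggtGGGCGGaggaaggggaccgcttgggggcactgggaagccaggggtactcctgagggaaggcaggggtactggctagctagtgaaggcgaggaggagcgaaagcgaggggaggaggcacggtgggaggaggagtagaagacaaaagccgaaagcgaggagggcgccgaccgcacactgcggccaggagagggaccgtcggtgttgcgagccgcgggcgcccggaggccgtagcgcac

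These windows are chr3:129532136-129532435 (plus strand), chr9:77917115-77917414 (plus strand) and chr19:10101454-10101753 (minus strand). Both strands were searched for a sterol regulatory element (TCACNCCAC), the E-box CACGTG, the CCAAT box, the GC box GGGCGG, and direct repeats of AGGTCA with 1 base (DR1) or 4 bases (DR4) between them. The Elovl5 window holds an E-box, found in 7.15% of all 32851 windows, and a pair of CCAAT boxes on the opposite strand, a motif found in 37.4%. The Fads2 window holds 1 GC box, found in 35.7% of windows, and none of the 6 motifs is in the Elovl6 window as spelled here. The sterol regulatory element, as spelled, is in 1.24% of windows and in none of the windows of the 5 members that have one. Scd1, Scd2 and Fads1 could not be searched. DR1 (0.0396% of windows) and DR4 (0.0152%) are likewise in none of the windows of the 5 members that have one. No match says only that these letters are not in the window.

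**Figure D1:**
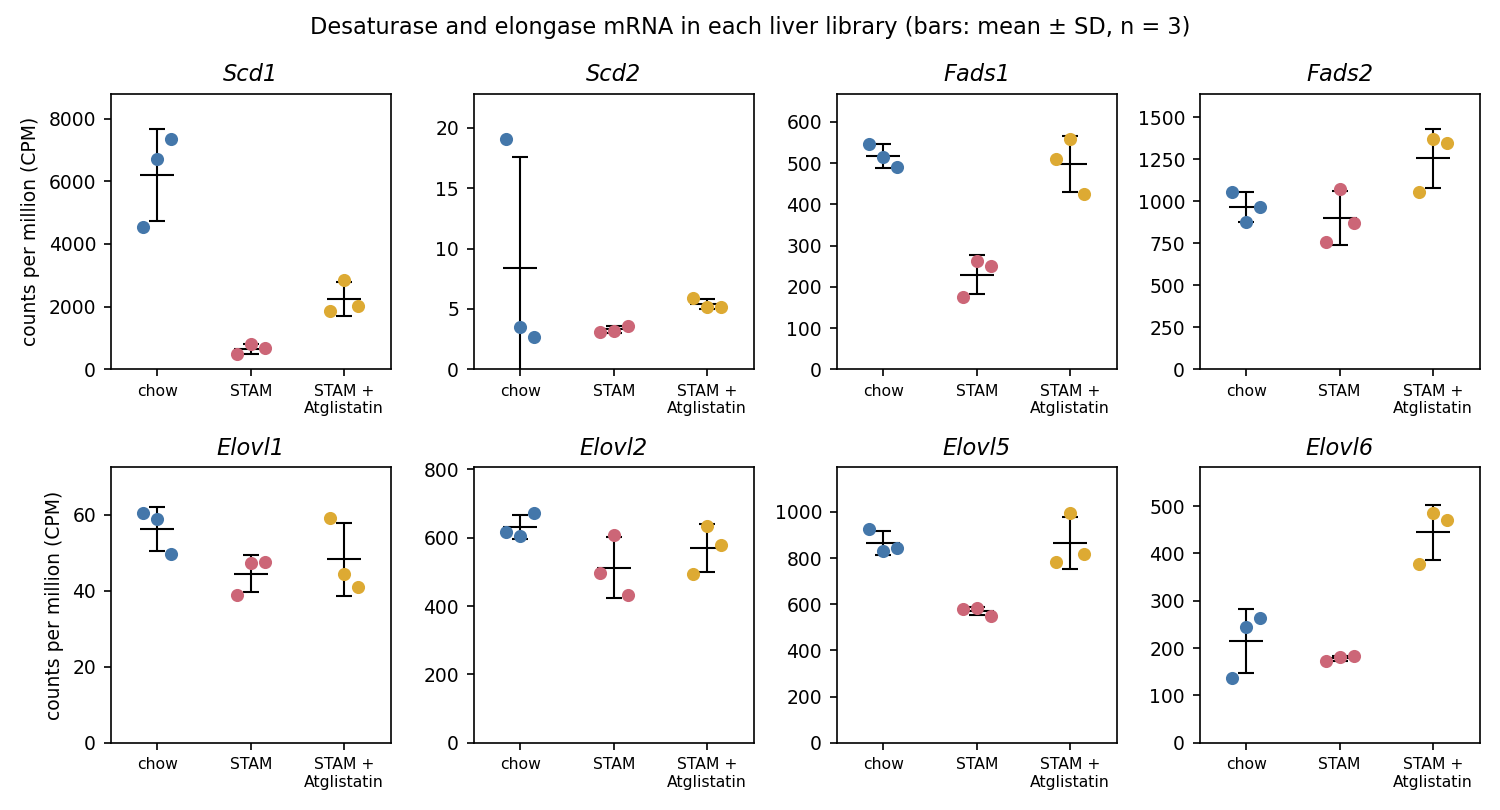
Level of each desaturase and elongase gene, in CPM (vertical axis, from 0, a separate scale for each gene), in every library of the 3 groups (points); horizontal marks and bars are the mean and SD of n = 3, cut at 0 for Scd2. Scd1, Fads1 and Elovl5 were lower in all 3 STAM libraries than in any other library, Elovl6 was highest in the 3 STAM + Atglistatin libraries, and 1 chow library sets the Scd2 mean.

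Scd1 had the highest level of the 8 genes in chow and STAM + Atglistatin liver. It lies on chromosome 19 of GRCm38 (44394455 to 44407879, minus strand). Its level was 4540, 6719 and 7336 CPM in the chow libraries, 482, 798 and 675 in STAM, and 1851, 2855 and 2018 in STAM + Atglistatin. The 3 groups did not overlap, with chow highest and STAM lowest. Because each read comes from a transcript's 3' end, levels of different genes are compared here without division by length. On that scale Scd1 ranked 19 of 12660 tested genes by mean level in chow, 172 in STAM and 44 with Atglistatin.

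Scd2, on chromosome 19 beside Scd1 (44293674 to 44306864, plus strand), encodes the desaturase form better known from brain and from early development. It was a rare transcript, at 19.04, 3.50 and 2.66 CPM in chow, 3.10, 3.19 and 3.61 in STAM, and 5.92, 5.18 and 5.19 in STAM + Atglistatin. Chow replicate 7 alone held 185 of its counts, against 29 and 18 in the other chow libraries. All 7 proliferation markers and 5 of 7 stellate markers were also highest in that library, as given above. Of 9 adipocyte markers 2 were at their highest there: Adipoq, at 2.47 CPM against 0 and 0.443 in chow and 0 to 1.91 in the other groups, and Plin1, at 1.75 CPM against 0 and 0.296 in chow and 0 to 0.201. Lep was at 0 in every library. The abundant genes of that list, which liver also expresses, were lower in chow replicate 7: Car3 was at 2630 CPM against 3671 and 3875 in the other chow libraries and Pck1 at 1318 against 1989 and 3166, and the list summed to 3996 CPM against 5682 and 7065 in chow and 3415 to 7838 in the other groups. Cidec and Lipe of that list were higher in chow replicate 7 than in the other chow libraries. Cidec was at 17.4 CPM against 1.81 and 1.33, and at 20.4 to 34.7 in the other groups. Lipe was at 24.3 CPM against 18.7 and 19.2, and at 12.3 to 37.9 in the other groups. The part of these markers in the Scd2 value was not tested. No word of 50 bases in the last 500 bases of Scd1 or Scd2 transcripts occurs in a transcript of another gene in GENCODE M21, so reads from these ends need not be shared between the pair.

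Fads1 and Fads2 lie on chromosome 19 (10182888 to 10196877, plus strand, and 10062765 to 10101746, minus strand). Fads1, which makes the last desaturation on the way to arachidonic acid, was at 547, 514 and 490 CPM in chow, 175, 263 and 250 in STAM, and 510, 557 and 424 in STAM + Atglistatin. All STAM libraries were below all others, while chow and STAM + Atglistatin overlapped. Fads2, which makes the first desaturation of linoleate, was at 1055, 875 and 969 CPM in chow, 760, 1074 and 872 in STAM, and 1055, 1368 and 1346 in STAM + Atglistatin. Its chow and STAM values overlapped, and its STAM values overlapped those with Atglistatin only at STAM replicate 2.

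The ratio of Fads1 to Fads2 counts within a library does not depend on scaling. It was 0.519, 0.587 and 0.506 in chow, 0.231, 0.245 and 0.287 in STAM, and 0.483, 0.407 and 0.315 in STAM + Atglistatin. The 3 groups did not overlap in this ratio, which was lowest in STAM. The ratio was chosen after the levels were seen, and its difference between groups was not tested.

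Elovl6 is on chromosome 3 (129532355 to 129638495, plus strand). Its level was 137, 244 and 263 CPM in chow, 172, 180 and 183 in STAM, and 378, 485 and 470 in STAM + Atglistatin. Every STAM + Atglistatin library was above every library of the other groups, and chow and STAM overlapped because of chow replicate 7. Words shared with the last 500 bases of some Elovl6 transcripts occur in Gm11295, which had 0 counts in every library.

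Elovl5, an elongase of polyunsaturated fatty acids on chromosome 9 (77917364 to 77984519, plus strand), was at 927, 829 and 844 CPM in chow and at 782, 996 and 819 in STAM + Atglistatin. In STAM it was at 578, 584 and 551 CPM, below every other library. Elovl2, which lengthens the polyunsaturated acids of greater length and is on chromosome 13 (41182381 to 41220405, minus strand), was at 616, 606 and 672 CPM in chow, 498, 608 and 431 in STAM, and 494, 635 and 579 in STAM + Atglistatin. Its 3 groups overlapped. Elovl1, which lengthens saturated and monounsaturated acids to very long chains, lies on chromosome 4 (118428093 to 118432953, plus strand). It was at 60.5, 58.8 and 49.8 CPM in chow, 38.8, 47.2 and 47.6 in STAM, and 59.2, 44.6 and 41.1 in STAM + Atglistatin. Its last 53 bases overlap Cdc20 on the other strand, and use of strand in the counting is not given. Reads of the pair in that overlap can therefore not be told apart. Cdc20, a cell cycle gene, had 231 counts in chow replicate 7 but 2 and 3 in chow replicates 8 and 9. The part of Cdc20 reads in the Elovl1 values was not tested.

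The first comparison set the STAM model against chow. The desaturase Scd1 fell most among the 8 genes, from 6198 ± 1469 to 652 ± 159 CPM (mean ± SD, n = 3 each), or 9.51-fold. Fads1 fell from 517 ± 28.8 to 229 ± 47.3 CPM, and Elovl5 from 867 ± 52.5 to 571 ± 17.5 CPM. The log2 fold changes were -3.25 ± 0.20 (SE) for Scd1 (edgeR adjusted p = 4.47e-08), -1.17 ± 0.15 for Fads1 (edgeR adjusted p = 8.44e-05) and -0.60 ± 0.12 for Elovl5 (edgeR adjusted p = 0.00457). Thus 3 of 8 fell and 0 rose at an adjusted p under 0.05, where 1.99% of all 12660 tested genes were called lower, 1.95% higher and 3.94% in either direction. DESeq2 and limma-voom called the same 3 genes lower and 0 higher. At an unadjusted p under 0.05, 5 were lower and 0 higher, where 925 of all 12660 tested genes were lower and 916 higher. Values did not overlap between the groups for 4 of the 8, against 20.7% of all tested genes. These were the 3 genes called and Elovl1.

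The other 5 genes did not pass in this comparison. Fads2 had a log2 fold change of -0.10 (95% interval -0.39 to 0.20), so a fall of the size of the Fads1 value lies outside its interval. Elovl6 was at -0.27 (-0.65 to 0.12), Elovl1 at -0.34 (-0.68 to 0.0014) and Elovl2 at -0.30 (-0.59 to -0.017). Without chow replicate 7, Elovl6 passed, at -0.51 (edgeR adjusted p = 0.0177, in a range from 0.0177 to 0.903 over 13 alternatives). Scd2 was at -1.37 (-2.53 to -0.20; edgeR adjusted p = 0.235), and without chow replicate 7 it was at 0.093, with the sign turned. With no low-count filter Scd2 passed (-1.36, edgeR adjusted p = 0.0257; highest of 13 alternatives 0.959). The median log2 fold change of the 8 was -0.47, beside -0.0014 over all tested genes.

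**Figure D2:**
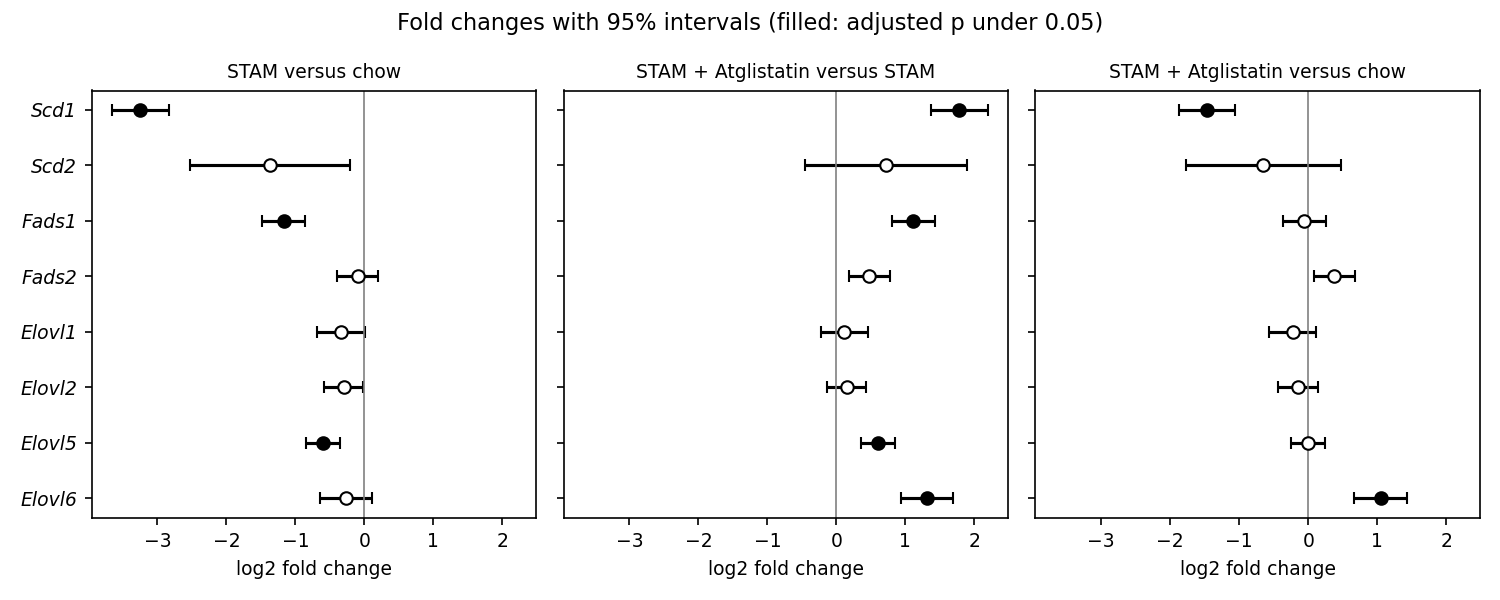
Log2 fold change (horizontal axis) of each of the 8 genes in the 3 comparisons, one per panel; points are edgeR estimates, bars their 95% intervals, and filled points had an adjusted p under 0.05. Scd1 is at -3.25 in STAM against chow and at 1.78 in STAM + Atglistatin against STAM, and Elovl6 is at 1.05 in STAM + Atglistatin against chow.

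The second comparison was within the model, with against without the lipase inhibitor. Scd1, Fads1, Elovl5 and Elovl6 rose with the inhibitor, and no member fell. Scd1 rose 3.44-fold to 2241 ± 538 CPM, Elovl6 rose 2.49-fold from 178 ± 5.31 to 444 ± 58.0 CPM, Fads1 rose 2.17-fold to 497 ± 67.5 CPM and Elovl5 1.52-fold to 866 ± 114 CPM (mean ± SD, n = 3). The log2 fold changes were 1.78 ± 0.20 for Scd1 (edgeR adjusted p = 3.43e-05), 1.32 ± 0.18 for Elovl6 (edgeR adjusted p = 0.000336), 1.12 ± 0.15 for Fads1 (edgeR adjusted p = 0.000219) and 0.60 ± 0.12 for Elovl5 (edgeR adjusted p = 0.00796). These 4 of 8 stand beside 1.04% of all tested genes called higher, 0.742% called lower and 1.79% called in either direction. The call of Elovl5 was lost without STAM replicate 1 (0.61, edgeR adjusted p = 0.0518) or STAM + Atglistatin replicate 5 (0.49, edgeR adjusted p = 0.0716), the latter the highest of its 13 alternatives.

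Fads2 did not pass by this test, at 902 ± 159 CPM in STAM and 1256 ± 175 with the inhibitor. Its log2 fold change was 0.48 ± 0.14 (interval 0.18 to 0.77; edgeR adjusted p = 0.126), and it passed with DESeq2 (adjusted p = 0.0483), limma-voom (adjusted p = 0.0289) and no low-count filter (edgeR adjusted p = 0.0137). The highest adjusted p of its 13 alternatives was 0.537. Elovl2 had a log2 fold change of 0.15 (-0.13 to 0.44) and Elovl1 one of 0.12 (-0.23 to 0.46). Scd2, at 0.72 (-0.46 to 1.89), did not pass, although its 3 values with the inhibitor lay above its 3 STAM values. Values of the groups did not overlap for 5 of the 8 genes, the 4 called and Scd2, against 17.0% of all tested genes. The median of the 8 was 0.66, beside -0.00071 over all tested genes.

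STAM + Atglistatin against chow shares its libraries with the other comparisons and is no independent evidence beside them. Scd1 was still lower than in chow, by 2.77-fold (log2 fold change -1.47 ± 0.20, edgeR adjusted p = 0.000177). Elovl6 was higher than in chow, 444 ± 58.0 against 215 ± 67.8 CPM (1.05 ± 0.18, edgeR adjusted p = 0.00199). Chow replicate 7 held the lowest Elovl6 level in chow, 137 CPM against 244 and 263. The Elovl6 call held without that library, and over 13 alternatives its log2 fold change was 0.81 to 1.22. Thus 1 of 8 was called higher and 1 lower, beside 2.10% and 1.97% of all tested genes, or 4.08% in either direction. Fads1 was at -0.057 (95% interval -0.37 to 0.25) and Elovl5 at -0.0018 (-0.25 to 0.24), intervals that do not reach the size of their STAM values. Fads2 was at 0.38 (0.084 to 0.67; edgeR adjusted p = 0.182), with no overlap between the groups, although its nearest values, in chow replicate 7 and STAM + Atglistatin replicate 4, both round to 1055 CPM. Such separation held for 3 of the 8, Scd1, Elovl6 and Fads2, against 18.6% of all tested genes. Elovl1 was at -0.22 (-0.57 to 0.12), Elovl2 at -0.15 (-0.43 to 0.14) and Scd2 at -0.65 (-1.77 to 0.48), which turned to 0.81 without chow replicate 7.

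The order of group means was therefore chow, STAM + Atglistatin, STAM for Scd1, with every step past the test. For Fads1 and Elovl5 it was the same order, with chow and STAM + Atglistatin not told apart. For Elovl6 it was STAM + Atglistatin, chow, STAM, with chow and STAM not told apart unless chow replicate 7 was left out. For Fads2 it was likewise STAM + Atglistatin, chow, STAM, and no step passed. For Elovl1 and Elovl2 it was chow, STAM + Atglistatin, STAM, again with no step passing.

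The summed level of the 8 genes was 7901 to 10626 CPM in chow, 2708 to 3558 in STAM and 5135 to 6946 with Atglistatin, with no overlap. Scd1 held 57.5, 68.2 and 69.0% of their counts in the chow libraries, 17.8, 22.4 and 22.4% in STAM, and 36.0, 41.1 and 35.4% in STAM + Atglistatin. Fads2 held 10.5 ± 2.52% in chow and, at 29.1 ± 1.07%, the highest share in STAM (n = 3 each). Elovl6 held 2.23 ± 0.43% in chow, 5.83 ± 0.68% in STAM and 7.53 ± 0.64% with Atglistatin. Shares sum to a fixed total, so a fall of Scd1 raises the others.

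**Figure D3:**
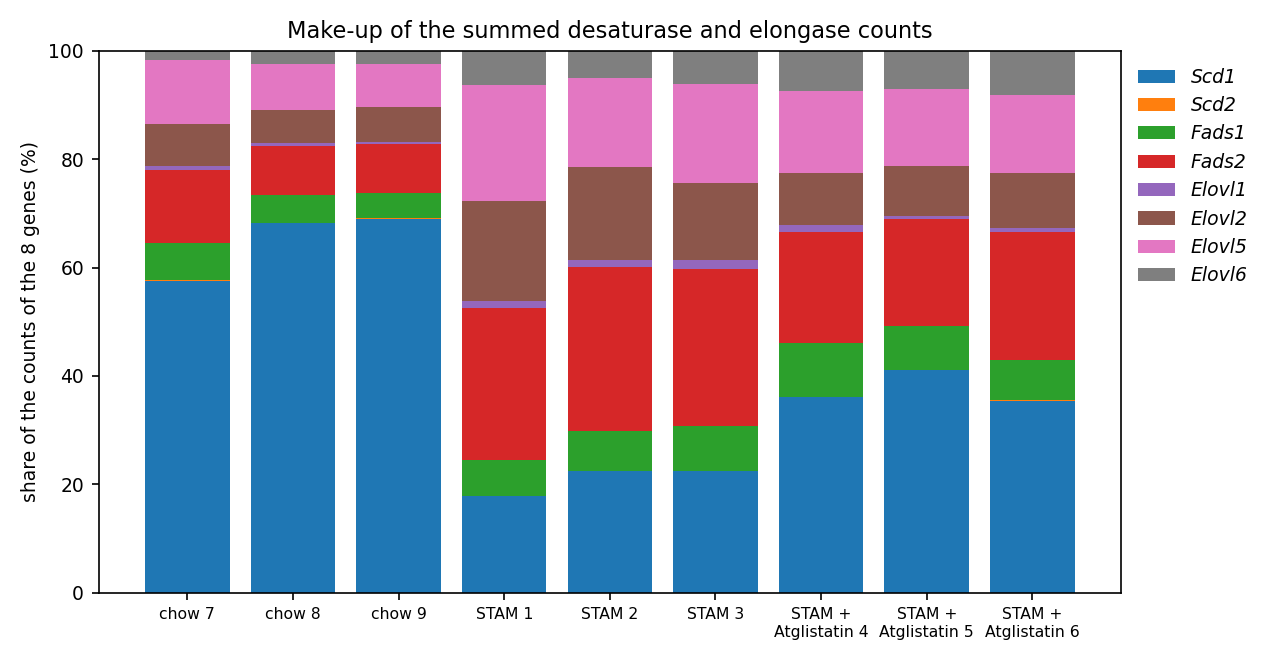
Share of the summed counts of the 8 genes (vertical axis, percent) held by each gene (colours) in each of the 9 libraries (bars). Scd1 takes 57.5 to 69.0% in chow, 17.8 to 22.4% in STAM and 35.4 to 41.1% with Atglistatin.

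The pattern of a gene over the 9 libraries was compared with that of every other tested gene by the root mean square difference of log2 CPM, each gene centred on its own mean. Nearest to Scd1 were Rdh11 (0.36), a retinol dehydrogenase, Nsdhl (0.36), a sterol synthesis enzyme, and Cyp2c29 (0.42), a cytochrome P450, where the median over all tested genes was 1.41. Among the genes nearest to Fads1 were Acat2 (0.18), an acetyl-CoA acetyltransferase, and Smim22 (0.19), against a median of 0.67. Elovl5 was nearest to Dlat (0.07), a subunit of pyruvate dehydrogenase, Zwint (0.11) and H2-Q10 (0.12; median 0.45). For Elovl6 the nearest were Npm3 (0.30), Gpi1 (0.31), the glycolytic glucose phosphate isomerase, and Ces2e (0.32), against a median of 0.72. Among the 8 genes, Elovl2 and Elovl5 were nearest to each other (0.22), while Scd1 and Scd2 were farthest apart (1.37). These distances describe 9 libraries that share groups, and genes of small change lie near many others.

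Genes that work beside the 8 are given from lists set with earlier results in view. Of 8 genes that supply palmitate and malonyl-CoA, 6 fell and 0 rose in STAM against chow (median log2 fold change -1.05), and 6 rose and 0 fell in STAM + Atglistatin against STAM (median 1.09). Fasn, the synthase that makes palmitate, went from 844 ± 216 CPM in chow to 214 ± 56.2 in STAM and 979 ± 197 with Atglistatin. Its log2 fold changes were -1.98 ± 0.20 and 2.19 ± 0.20. Acly, which makes cytosolic acetyl-CoA, was at -1.14 ± 0.15 and 1.21 ± 0.15, and Acacb, an acetyl-CoA carboxylase, at -2.10 ± 0.20 and 1.37 ± 0.20. Acss2, which makes acetyl-CoA from acetate, was at -2.39 ± 0.17 and 0.92 ± 0.17. Against chow, Acss2 (-1.47 ± 0.17) and Acacb (-0.72 ± 0.19) were still lower in STAM + Atglistatin, and the other 6 were not called. The Acacb call against chow held with DESeq2 size factors, DESeq2 and limma-voom, and when genes of low count were kept in. It was lost with library totals and in a fit of the 2 groups only. Among the fits with a library left out, the Acacb call held only when that library was chow replicate 7. It was lost without any of the other 5 libraries (-0.79 to -0.53, edgeR adjusted p 0.0849 to 0.243). Without STAM replicate 1, Acaca lost its call in STAM against chow (-0.71, edgeR adjusted p = 0.0650), and Acaca (0.81, edgeR adjusted p = 0.0573) and Acss2 (0.85, edgeR adjusted p = 0.0678) lost theirs in STAM + Atglistatin against STAM.

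Of 9 further desaturases and elongases, 5 were tested. In STAM against chow 2 fell and 0 rose, in STAM + Atglistatin against STAM 1 fell and 0 rose, and against chow 1 fell. Elovl3, an elongase of saturated and monounsaturated acids known to be higher in male liver, was at 186, 287 and 305 CPM in chow, 90.9, 62.6 and 104 in STAM, and 17.0, 25.2 and 39.7 in STAM + Atglistatin. It fell in both steps, by 1.59 ± 0.24 and 1.66 ± 0.25 on the log2 scale (edgeR adjusted p = 0.000657 and 0.00105). Its direction with the inhibitor was thus opposite to that of Elovl5 and Elovl6. Fads3, the neighbour of Fads2, had a level of 3.96 ± 1.44 CPM in chow against 0.741 ± 0.206 in STAM (-2.41 ± 0.58, edgeR adjusted p = 0.0235). The Fads3 call was lost with limma-voom and without any 1 of chow replicate 7 and STAM replicates 1, 2 and 3 (-2.63 to -2.07, edgeR adjusted p 0.0525 to 0.110). With Atglistatin Fads3 was at 3.51 ± 1.19 CPM. It was not called against STAM in the reported fit or with limma-voom, but was called higher with DESeq2 and with no low-count filter. Without chow replicate 7, Elovl7, which lengthens saturated acids, was called higher in both groups of STAM mice than in chow. Its counts were low: 28, 0 and 0 in chow, 28, 26 and 8 in STAM, and 29, 17 and 9 in STAM + Atglistatin. That call thus rests on chow replicates 8 and 9, which held 0 counts of Elovl7. Scd3 had 1 count and Scd4 had 3 counts over all libraries, and Elovl4 had 0.

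The elongases work with a reductase, a dehydratase and a second reductase in each round. Of the 6 such genes, 1 fell and 0 rose in STAM against chow: Tecr, the last reductase, at -0.70 ± 0.15 (edgeR adjusted p = 0.0113). That call was lost without STAM replicate 1, STAM replicate 2, chow replicate 8 or chow replicate 9 (-0.66 to -0.61, edgeR adjusted p 0.0538 to 0.0823). In both comparisons with STAM + Atglistatin 0 of the 6 passed in edgeR. At an unadjusted p under 0.05, 1 was higher and 0 lower in each. At that threshold 645 of all 12660 tested genes were higher and 640 lower against STAM, and 946 and 932 against chow. DESeq2 and limma-voom each called Hacd3, a dehydratase, higher in STAM + Atglistatin than in chow, and 0 of the 6 against STAM. Hsd17b12, the first reductase, was at 168 ± 15.4 CPM in chow, 158 ± 8.29 in STAM and 166 ± 25.1 with Atglistatin. Desaturases draw electrons through cytochrome b5 and its reductase. Of 5 such genes 2 fell in STAM against chow, Cyb5b (-0.91 ± 0.13) and Cyb5r3 (-0.79 ± 0.15), and 0 rose. With the inhibitor Cyb5b rose by 0.56 ± 0.13 against STAM, and 0 of the 5 fell; the call held without STAM replicate 3 but was lost without any other of the 6 libraries (0.48 to 0.59, edgeR adjusted p 0.0657 to 0.238). Cyb5a was higher in STAM + Atglistatin than in chow (0.55 ± 0.14, edgeR adjusted p = 0.0296), as the 1 call of 5 in the reported fit. Cyb5r3 was called lower in that comparison with DESeq2, limma-voom and no low-count filter. It was also called lower without STAM + Atglistatin replicate 5 or chow replicate 7, and Cyb5b without chow replicate 7. The Cyb5a call was lost without STAM + Atglistatin replicate 4 or 5 or chow replicate 8 or 9 (0.44 to 0.60, edgeR adjusted p 0.0561 to 0.165).

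Of 12 regulators of lipogenic transcription, 2 fell and 0 rose in STAM against chow, Insig1 and Scap, which hold and escort SREBP proteins. Insig1, itself a known SREBP target, went from 143 ± 29.4 CPM in chow to 46.7 ± 4.24 in STAM (-1.62 ± 0.16). It rose to 129 ± 18.7 CPM with the inhibitor (1.46 ± 0.16), as the 1 call among the 12 in that comparison. Scap fell by 0.78 ± 0.13 in STAM and was also lower in STAM + Atglistatin than in chow (-0.72 ± 0.13), as was Insig2 (-0.71 ± 0.17). The Insig2 call was lost in a fit of the 2 groups only, with library totals, and without STAM + Atglistatin replicate 4 or 5 or chow replicate 9 (-0.73 to -0.53 without a library, edgeR adjusted p 0.0562 to 0.127). Srebf1, the gene of SREBP-1, did not pass: 144 ± 34.4 CPM in chow, 110 ± 25.3 in STAM and 142 ± 36.1 with the inhibitor, with log2 fold changes of -0.40 (95% interval -0.81 to 0.020) and 0.38 (-0.040 to 0.79). Counts from 3' ends do not separate its forms 1a and 1c. Mlxipl, the gene of the carbohydrate-responsive factor ChREBP, was at 90.5 ± 20.4, 97.7 ± 2.91 and 84.8 ± 11.4 CPM, and passed in none of the comparisons.

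Docosahexaenoic acid is finished by chain shortening in peroxisomes. Of 8 genes of that step 2 rose and 0 fell in STAM against chow, the thiolases Acaa1b (0.84 ± 0.14) and Acaa1a (0.61 ± 0.14), close relatives whose reads may be shared. Acaa1a did not pass without STAM replicate 3 (0.51, edgeR adjusted p = 0.0899). In STAM + Atglistatin against STAM 1 rose, the transporter Abcd2 (0.93 ± 0.23, edgeR adjusted p = 0.0459), and 0 fell. The Abcd2 call was lost with library totals and when any 1 of the 6 libraries was left out (0.77 to 1.01, edgeR adjusted p 0.0831 to 0.292). Against chow, Acaa1b was called higher (1.03 ± 0.14). Of 8 enzymes that transfer acyl chains into phospholipids, 6 were tested and 0 passed in edgeR, DESeq2 or limma-voom in any of the 3 comparisons. At an unadjusted p under 0.05, 1 was lower in STAM than in chow and 1 higher in STAM + Atglistatin than in chow. Of all 12660 tested genes, 925 and 946 were so called at that threshold. Lpcat3, which places polyunsaturated chains, was at 108 ± 7.13, 108 ± 9.23 and 109 ± 4.37 CPM, with a 95% interval of -0.26 to 0.26 for STAM against chow.

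**Figure D4:**
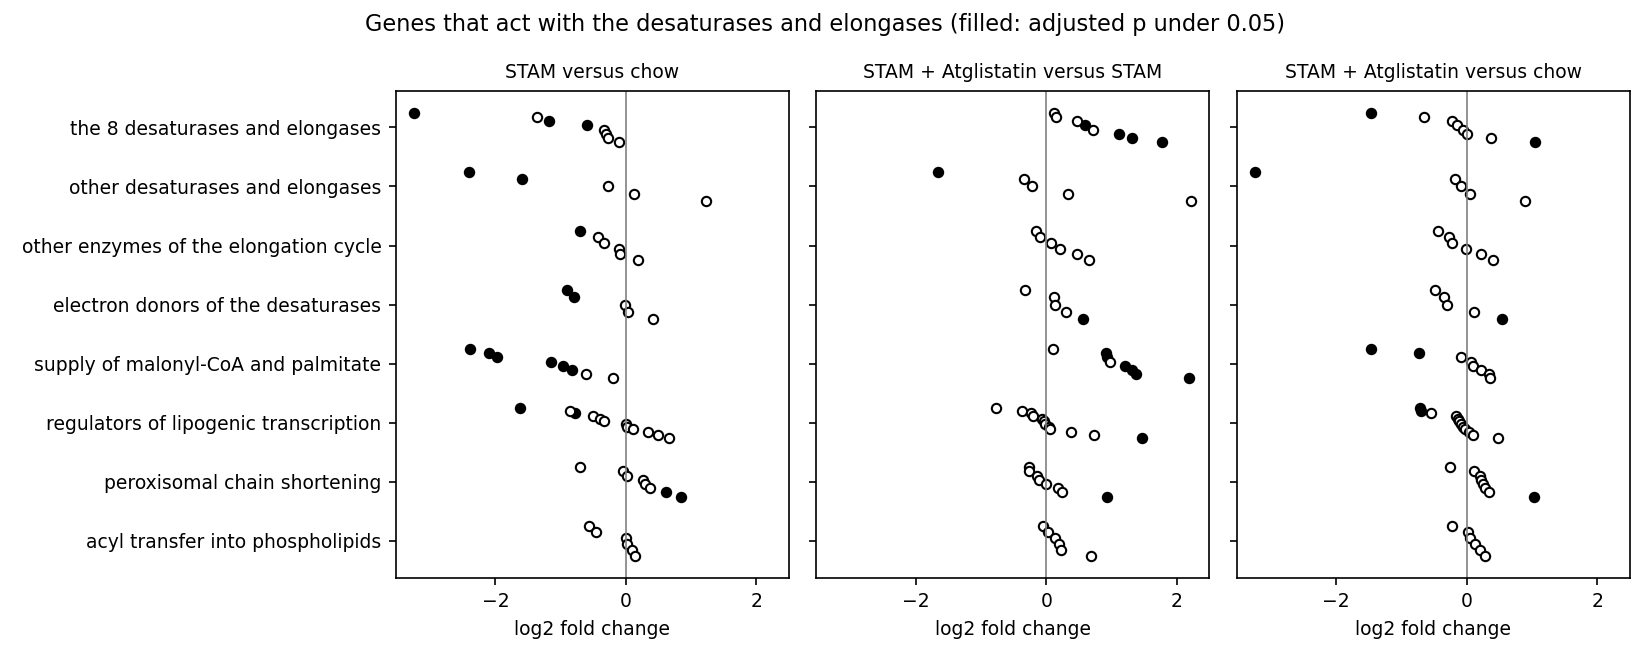
Log2 fold change (horizontal axis) of each tested gene (points) of the 8 and of the 7 lists of genes that act beside them (rows) in the 3 comparisons, one per panel; filled points had an edgeR adjusted p under 0.05. Of the 8 genes that supply malonyl-CoA and palmitate, 6 lie filled to the left in STAM against chow and 6 filled to the right in STAM + Atglistatin against STAM.

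The authors' deposited table gives its own tests. In it, 3 of the 8 genes had an adjusted p under 0.05 between chow and STAM (Scd1, Fads1 and Elovl5), and 2 between STAM + Atglistatin and chow (Scd1 and Elovl6). Between STAM + Atglistatin and STAM the authors' deposited table held 5, the 4 named above and Fads2 (log2 fold change 0.45 ± 0.13, adjusted p = 0.0355). Its fold changes were smaller in size than those given here for all 3 genes called in STAM against chow: the authors' deposited table, which sets chow over STAM, has 2.62 for Scd1, 1.10 for Fads1 and 0.58 for Elovl5.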

How the data were processed

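QuantSeq 3' libraries of left-lobe liver RNA were sequenced by the authors, who aligned reads with STAR to GRCm38, per the submitters' processing notes. Neither the counting tool nor the annotation, strand use or treatment of multiply mapped reads is stated in the labels or the file. As deposited, the table has raw counts per gene and library, group sums, and the authors' log2 fold changes with their standard errors, p-values and adjusted p-values, per the file headers. The 7 ribosomal RNA entries (0.260 to 0.529% of counts) were left out.

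Counts were fitted with edgeR 4.0.16 (R 4.3.3). After TMM scaling and filterByExpr, 12660 genes remained for 1 model of the 3 group means over all 9 libraries, quasi-likelihood tests, and Benjamini-Hochberg adjustment over all tested genes within each comparison. A gene was called, and is said to have risen or fallen, at an adjusted p under 0.05. SEs and 95% intervals use the quasi-likelihood dispersion. CPM uses TMM-scaled totals. On counts simulated for STAM against chow, the share of false calls was above the nominal limit, and some of the smaller changes were missed.

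The members and lists were chosen with earlier results of these data known. Named genes were the 8 members, up to 4 called genes per list, direction and comparison by smallest p, 7 preset genes, and the 3 nearest patterns of a member; some that this rule selects are only counted, and 1 is not reported here. Positions and overlaps are from GENCODE M21 (GRCm38), which held 55141 of the gene identifiers, and promoters from RefSeq (GRCm38.p6). Alternatives were DESeq2 size factors, library totals, DESeq2 1.42.0, voom in limma 3.58.1, a fit without the filter on low counts, the 2 groups only, an added limit of 1 on the absolute log2 fold change, and the omission of each library in turn.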

Additional observations from a re-analysis of the deposited data

How the results depend on the processing

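Of 312 values of the 8 genes under alternatives, 291 kept their direction and their side of the threshold, 4 lost a call, 5 gained one and 12 changed sign. None of the 12 was a called value. The fold limit reuses the reported fit, so there a direction cannot change and a call can only be lost. Most reported results of the 8 genes were not called, and for these keeping the side means staying uncalled. In STAM against chow, Scd2 turned to 0.093 without chow replicate 7 (-1.78 to 0.093 over single libraries left out) and Fads2 to 0.011 without STAM replicate 1 (-0.24 to 0.011). In STAM + Atglistatin against STAM, Elovl1 turned to -0.062 without STAM + Atglistatin replicate 4 (-0.062 to 0.22). In STAM + Atglistatin against chow, Scd2 turned to 0.21 with limma-voom and 0.81 without chow replicate 7 (-1.06 to 0.81). Fads1 there turned to 0.022 with library totals and 0.044 without STAM + Atglistatin replicate 6 (-0.15 to 0.044). Elovl5 there turned to 0.078 with library totals, 0.031 with limma-voom, and 0.063, 0.035 and 0.047 without STAM + Atglistatin replicate 4, STAM + Atglistatin replicate 6 and chow replicate 7 (-0.12 to 0.063). The cause was not tested. The number of the 8 genes called was 2 to 4 in STAM against chow (3 as reported), 3 to 5 in STAM + Atglistatin against STAM (4) and 2 in every alternative against chow (2).

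Over all tested genes, the count in STAM against chow (499) was 230 with a log2 fold change of at least 1, which only removes calls, and 291 (without STAM replicate 1) to 724 (without chow replicate 7) when a library was left out. In STAM + Atglistatin against STAM (226) it was 392 with no low-count filter, 123 with the fold limit and 131 to 191 with a library left out. Against chow (516) it was 256 with the fold limit and 309 to 757 with a library left out. With library totals in place of TMM, 347 genes were higher and 205 lower in STAM against chow (247 and 252 with TMM), and 359 and 184 in STAM + Atglistatin against chow (266 and 250). Over the 7 lists together, the calls were 15, 10 and 7 in the 3 comparisons, in that order. With the fold limit they were 7, 6 and 3, and with a library left out 12 to 16, 6 to 10 and 4 to 10; these list counts were an alternative chosen after seeing the data. No paired analysis was possible because the groups share no replicate numbers. Depth limits Scd2, with 18 to 59 counts in 8 of the libraries.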

Other observations

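Scd1 and Elovl6 can be set against Fasn, whose product they act on, by ratios of counts within a library, which do not depend on scaling. Scd1 counts were 7.58, 6.69 and 7.89 times those of Fasn in the chow libraries, 2.75, 4.24 and 2.42 times in STAM, and 1.88, 2.44 and 2.59 times in STAM + Atglistatin. The chow libraries were all above the others, and STAM and STAM + Atglistatin overlapped. Elovl6 counts were 0.229, 0.243 and 0.283 times those of Fasn in chow, 0.982, 0.957 and 0.655 times in STAM, and 0.383, 0.414 and 0.604 times in STAM + Atglistatin, with no overlap between the groups. Elovl6 to Elovl5 was 0.148, 0.295 and 0.312 in chow, 0.298, 0.309 and 0.331 in STAM, and 0.483, 0.487 and 0.574 in STAM + Atglistatin. The STAM + Atglistatin libraries were above all others in that ratio. These ratios were chosen after the levels were seen and were not tested.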
